A study of Camelus dromedarius with 10 samples.

Results

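Neuropeptide receptors are the membrane proteins through which peptides released by neurones, glia and vessels act on their target cells. A list of 46 genes for such receptors was examined in the supraoptic nucleus (SON) of the dromedary camel. A receptor gene could be followed where its symbol is paired with an Ensembl gene ID, as the camel name or the name of the human ortholog. The pairs came from shortened copies of the study's supplementary tables, which held 18 of the 46. The 18 were APLNR, EDNRB, BDKRB1, HCRTR1, HCRTR2, MCHR1, MC3R, GHSR, CRHR2, GNRHR, RXFP2, PROKR2, SSTR1, NTSR1, TACR1, TACR2, NPFFR2 and NMUR2. The other 28, among them the receptors for neuropeptide Y, galanin and kisspeptin and most of those for melanocortins and somatostatin, are not analysed here.

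All these receptors span the membrane and couple to G proteins, which open or close ion channels and control enzymes such as phospholipase C and adenylyl cyclase. The magnocellular neurones of the SON make vasopressin and oxytocin and send them to the posterior pituitary. Their firing is set by osmotic signals, by synaptic input and by peptides, some of which the neurones release from their own dendrites. Astrocytes and blood vessels of the nucleus carry peptide receptors as well.

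RNAseq was made on the rostral SON of 10 male dromedary camels aged 4 to 5 years. The 5 control camels had free access to food and water, and the 5 WD (water deprivation) camels had food but no water for 20 days. Each library came from 1 camel, from punches of the SON on one side that were pooled over consecutive sections, so neurones, glia and vessels were sequenced together. Ribosomal RNA was depleted, and the deposited values are the read pairs counted on each of 22444 gene IDs of the assembly Camdro2.

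Libraries held between 1665098 and 8126641 counted read pairs, but 5 gene IDs with no symbol took between 27.7% and 76.1% of each. Outside these 5 IDs, 397495 read pairs were left in control library 13 (CON13) and 1106575 in WD library 6 (WD6). The other 8 libraries had 2078393 to 5872137. Levels are given as CPM, counts per 1e+06 read pairs after TMM normalization, on which 1 read pair weighed from 0.0864 CPM in WD9 to 1.20 CPM in CON13. A count of 0 therefore allowed a level of up to 0.259 CPM in WD9 and 3.59 CPM in CON13 (3 read pairs, counting error only). Of 7 genes that mark magnocellular neurones, 4 (PDYN, VGF, PCSK1 and PTPRN) rose in WD camels at the threshold used for the receptors. None fell at this threshold, and CHGB, SIM1 and OTP were not called. By sign 5 of the 7 were positive and 2 negative, and 1 of the negative had an unadjusted p under 0.05 by edgeR. Of 6 microglial markers none passed this test, but all 6 had a positive log2 fold change and 5 an unadjusted p under 0.05. WD15 stood apart, with a summed level of 775 CPM against 262 to 409 CPM in the other WD libraries, and without it 3 had an unadjusted p under 0.05 and the log2 fold changes were 0.08 to 0.82 in place of 0.62 to 1.01. DESeq2, and edgeR with depth as a covariate, each called 1 of them, CTSS, and the part of microglial RNA in the receptor values was not tested. All 6 markers of the oligodendrocyte lineage and the 2 of GABA neurones had negative log2 fold changes, with medians of -0.19 and -0.11. None of these had an unadjusted p under 0.05 by edgeR. Of 9 peptide genes that mark neighbouring hypothalamic neurones, 6 were removed by the filter on low counts, such as HCRT at a control mean of 0.670 ± 0.378 CPM (SD, n = 5). The other 3 were TRH at 20.7 ± 10.4 CPM, SST at 7.80 ± 3.53 CPM and TAC3 at 3.60 ± 2.66 CPM.

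The 18 receptor genes together received 4584 read pairs over the 10 libraries, and APLNR and EDNRB held 75.0% of them. The mean control level was 36.6 ± 5.33 CPM (SD, n = 5) for APLNR and 21.3 ± 7.52 CPM for EDNRB, at percentiles 86.1 and 76.0 of all gene IDs. The remaining 16 genes lay between 0.259 CPM (BDKRB1) and 4.01 CPM (CRHR2), at percentiles 11.3 to 42.9. The lower end rests on CON2, which held 5 of the 7 control read pairs of BDKRB1, and it was at 0.0574 CPM without this library. EDNRB was at 5.31 times the level of CRHR2, the next gene. These are read pairs per gene and not per length of transcript, since no transcript lengths of this annotation were used here, so the order says where the reads fell and not which receptor had more mRNA molecules. Among the lower 16 most neighbours in the order were within their spread, as shown by CRHR2 at 4.01 ± 1.93 CPM, HCRTR1 at 3.62 ± 0.970 CPM and RXFP2 at 2.79 ± 1.96 CPM. APLNR and EDNRB came first and second also in the WD camels and with any control library left out.

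**Figure D1:**
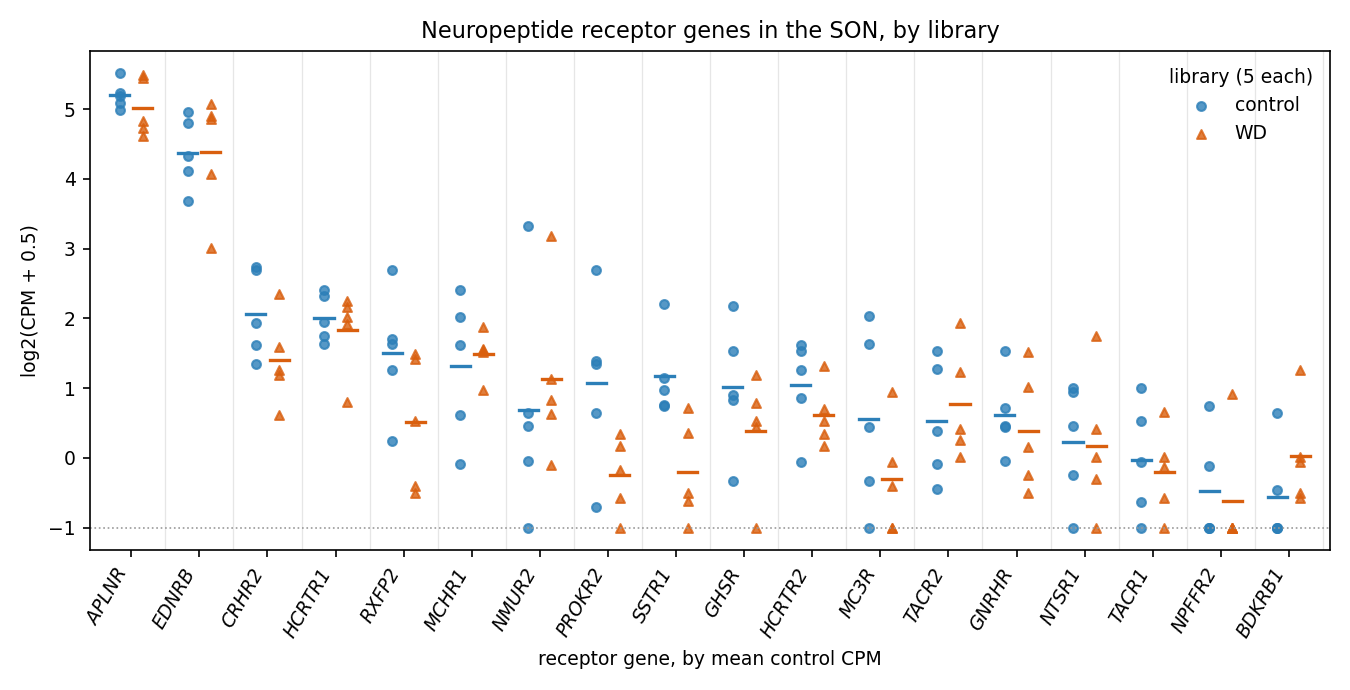
Level of each of the 18 receptor genes in each library, as log2(CPM + 0.5), with genes ordered by mean control CPM. Blue circles are the 5 control and orange triangles the 5 WD libraries, horizontal bars are means on this scale, and the dotted line marks a count of 0. APLNR and EDNRB stand above the other 16 genes, and only for SSTR1 do the control and WD points not overlap.

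The question here is whether water deprivation changed the level of any of these receptors. The test was edgeR's quasi-likelihood F test, on the 14432 genes with enough counts and with Benjamini-Hochberg adjustment over all of them. The threshold is an adjusted p of 0.05, and SE stands for the standard error. Of the 18 receptor genes 6 passed the filter on low counts (APLNR, EDNRB, CRHR2, HCRTR1, RXFP2 and MCHR1), with 86 to 1952 read pairs each over the 10 libraries, and the other 12 had 19 to 80 read pairs. None of the 6 was past the threshold by edgeR, with adjusted p-values between 0.741 and 0.969, where 0.499% of all tested genes were called. None of the 6 had an unadjusted p under 0.05, against 9.31% of all tested genes. By DESeq2's Wald test, which gave 12 of the 18 an adjusted p, none was called either, where 1.27% of genes were. The median log2 fold change of the 6 was -0.12, beside 0.02 over all genes tested, and 2 were positive and 4 negative. In this tissue RNA, fewer cells of a type and less RNA per cell cannot be told apart for any of these genes.

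**Figure D2:**
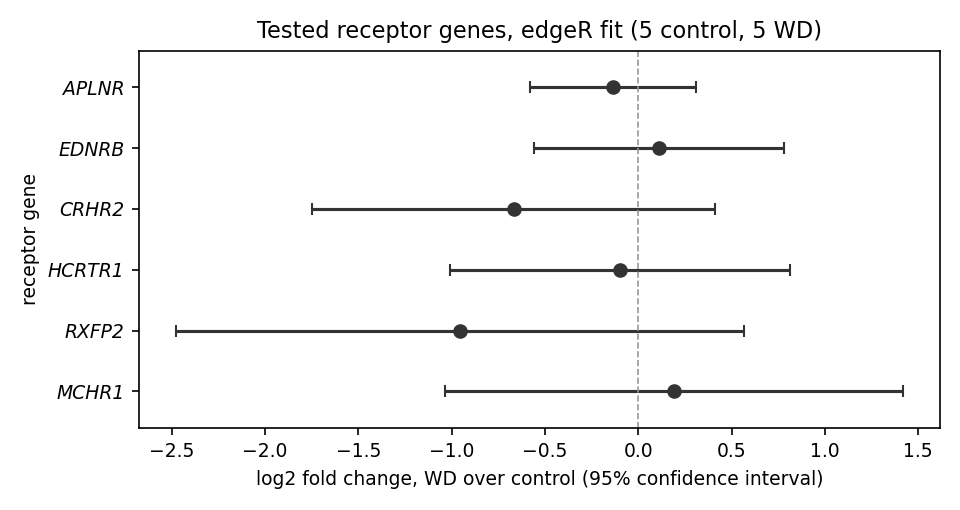
Log2 fold change of WD over control for the 6 receptor genes that passed the filter, from the edgeR fit on 5 control and 5 WD libraries. Points are estimates and bars their 95% confidence intervals, and the dashed line marks no difference. All 6 intervals include 0, and they are narrowest for APLNR and EDNRB, the genes with the most read pairs.

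APLNR (ENSCDRG00005002219) encodes the receptor of apelin, a peptide of vessels and of hypothalamic neurones with actions on vasopressin release and blood pressure. It was at 31.2 CPM in CON2, 45.2 in CON3, 33.5 in CON4, 35.9 in CON5 and 37.1 in CON13. In the WD libraries it was at 28.0 CPM in WD6, 24.0 in WD7, 44.4 in WD8, 26.2 in WD9 and 43.3 in WD15. WD8 and WD15 lay with the upper controls and the other 3 WD libraries below every control, so the groups overlapped and the WD libraries were the more spread (SD 9.87 against 5.33 CPM). WD over control, the log2 fold change was -0.14 (SE 0.21, 95% confidence interval -0.58 to 0.31, adjusted p = 0.904 by edgeR). In folds, the interval runs from 0.670 to 1.24 times the control level, which is the tightest bound among these receptors. Apelin itself was hardly detected, as its gene APLN had 3 read pairs in all control and 11 in all WD libraries.

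Endothelial cells are a known site of APLNR, and 7 of their marker genes were set beside it. Their summed level was 244 to 434 CPM in control and 257 to 526 CPM in WD libraries, 6 of the 7 log2 fold changes were positive, and none was past the threshold by edgeR or DESeq2. None of the 7 was at 0 in any library. FLT1 and KDR, receptors of vascular endothelial growth factor, had the unadjusted p-values under 0.05 on this list, with log2 fold changes of 0.62 and 0.64 (adjusted p = 0.362 and 0.402 by edgeR). The part of endothelial RNA in the APLNR values was not tested.

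EDNRB (ENSCDRG00005009727) encodes the endothelin B receptor, which binds the vasoactive endothelins and in brain is known from astrocytes and endothelium. It was at 19.6 CPM in CON2, 12.3 in CON3, 30.5 in CON4, 27.4 in CON5 and 16.7 in CON13. The WD values were 7.59 CPM in WD6, 33.3 in WD7, 29.3 in WD8, 28.4 in WD9 and 16.3 in WD15. Both groups held low and high libraries, and the WD libraries went past the controls at both ends. The means were 21.3 ± 7.52 CPM (SD, n = 5) in control and 23.0 ± 10.7 CPM in WD camels. This gave a log2 fold change of 0.11 (SE 0.32, 95% confidence interval -0.56 to 0.78, adjusted p = 0.952 by edgeR), or 0.679 to 1.71 times the control level.

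The libraries in which EDNRB was low were those with little depth. The 5 libraries with the fewest read pairs outside the 5 dominant IDs (CON13, WD6, CON3, CON2 and WD15) had 7.59 to 19.6 CPM, and the 5 with the most (WD8, CON5, WD7, CON4 and WD9) had 27.4 to 33.3 CPM. Over the 10 libraries, EDNRB level and these read pairs had a Pearson's r of 0.790 (permutation p = 0.00635) and a Spearman's rho of 0.794 (permutation p = 0.00907). Adjusted over the 6 tested receptors by Benjamini-Hochberg, the permutation p-values were 0.0381 and 0.0544. Without CON13 and WD9, the libraries farthest from the median depth, r was 0.939 and rho 0.929. Over all 5 libraries of a group, rho was 0.9 in the controls and 0.7 in the WD libraries. For the other 5 receptors r lay between -0.611 and -0.319, with adjusted permutation p-values of at least 0.177. Within the controls alone, rho was -0.9 for RXFP2 and MCHR1, as large in size as for EDNRB, and within the WD libraries it was 0.1 and 0.6.

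Within the libraries of less depth, EDNRB was at 12.3 to 19.6 CPM in 3 control and 7.59 to 16.3 CPM in 2 WD libraries. Within those of more depth it was at 27.4 to 30.5 CPM in 2 control and 28.4 to 33.3 CPM in 3 WD libraries. The groups overlapped in both sets, and with depth as a covariate the log2 fold change was -0.07 (SE 0.25, adjusted p = 0.952 by edgeR). The part of depth in the EDNRB values was not tested further.

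**Figure D3:**
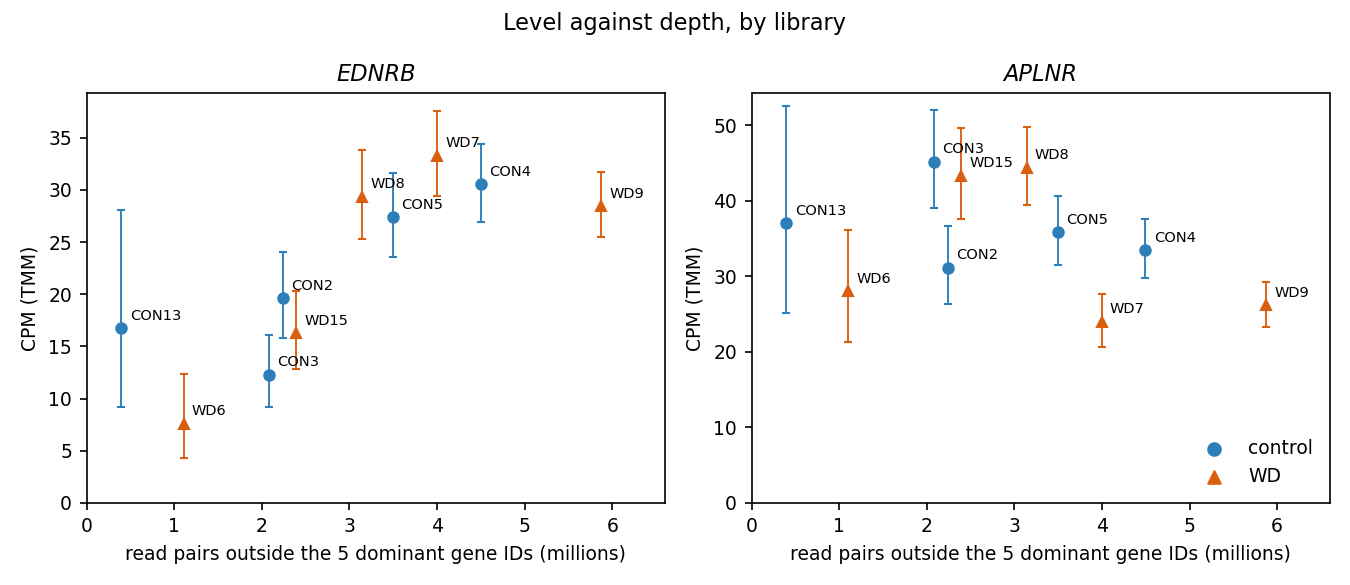
Level of EDNRB (left) and APLNR (right) in CPM against the number of read pairs outside the 5 dominant gene IDs, 1 point per library. Blue circles are control and orange triangles WD libraries, and bars are exact 95% binomial intervals of the counts. EDNRB lies at 7.59 to 19.6 CPM in the 5 libraries of less depth and at 27.4 to 33.3 CPM in the other 5, while APLNR shows no such step.

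Astrocytes are a known site of EDNRB, and 3 of their marker genes were set beside it. The summed level of GJA1, ALDH1L1 and ALDOC was 298 to 416 CPM in control and 475 to 624 CPM in WD libraries, without overlap. ALDOC made up most of it and did not overlap between the groups, while GJA1, ALDH1L1 and EDNRB did. Within each group this sum also divided by depth. It was 298 to 347 CPM in the 3 control libraries of less depth and 412 to 416 CPM in the other 2, and 475 CPM in both WD libraries of less depth and 518 to 624 CPM in the other 3. These 3 were taken from a copy of the study's table that holds genes of small p only, so their direction is not independent evidence. None of the 3 was past the threshold by edgeR (adjusted p of 0.229 to 0.502), although all 3 had an unadjusted p under 0.05 and DESeq2 called ALDOC. None was at 0 in any library, and the part of astrocyte RNA in the EDNRB values was not tested. Of the peptides that EDNRB binds, EDN1 was at 3.46 ± 3.07 CPM (SD, n = 5) in control and 1.09 ± 0.607 CPM in WD camels, with a control mean of 2.24 CPM without CON13. EDN3 was at 1.68 and 1.19 CPM, with a control mean of 1.08 CPM without CON5, and EDN2 had 6 control and 8 WD read pairs. All 3 were below the filter. ECE1, the enzyme that cuts endothelin from its precursor, was at 62.0 ± 17.8 CPM in control and 87.9 ± 29.6 CPM in WD camels, a log2 fold change of 0.47 (SE 0.23, adjusted p = 0.567 by edgeR). Another vasoactive receptor, BDKRB1, the inducible B1 receptor of kinins, had 7 control and 14 WD read pairs and was at 0 in CON3, CON5 and CON13.

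Receptors for peptides of arousal and feeding came next. HCRTR1 (ENSCDRG00005017596), a receptor of the orexins that raise wakefulness and food intake, had 191 read pairs. Its control levels were 4.48 CPM in CON2, 2.60 in CON3, 2.87 in CON4, 3.37 in CON5 and 4.78 in CON13, and its WD levels were 4.27 in WD6, 3.57 in WD7, 3.99 in WD8, 3.28 in WD9 and 1.25 in WD15. WD15 stood below the other 9 libraries, which lay within 2.60 to 4.78 CPM. Its log2 fold change was -0.10 (SE 0.43, 95% confidence interval -1.01 to 0.81, adjusted p = 0.969 by edgeR), and it was 0.11 without WD15. HCRTR2, the second orexin receptor, had 35 control and 37 WD read pairs and a count in each library, at 1.72 ± 0.857 CPM (SD, n = 5) in control and 1.09 ± 0.540 CPM in WD camels. The orexin precursor gene HCRT had 27 read pairs in all.

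MCHR1 (ENSCDRG00005016289), the receptor of melanin-concentrating hormone, was at 2.56 CPM in CON2, 3.55 in CON3, 1.03 in CON4, 0.439 in CON5 and 4.78 in CON13. In WD camels it was at 2.37 CPM in WD6, 3.19 in WD7, 2.46 in WD8, 2.42 in WD9 and 1.46 in WD15. The WD libraries lay inside the range of the controls, which spread over 0.439 to 4.78 CPM. In the edgeR fit the log2 fold change was 0.19 (SE 0.58, 95% confidence interval -1.03 to 1.42, adjusted p = 0.953), although the mean CPM was slightly lower in WD camels (2.38 against 2.47). Split by the same depth sets, which were chosen after values were seen, the order of the groups differed between the sets. The counts were small, with 3 read pairs in CON5 and 4 in CON13. In the 5 libraries of less depth the 3 controls had 2.56 to 4.78 CPM and the 2 WD libraries 1.46 to 2.37 CPM, while in the other 5 the 2 controls had 0.439 to 1.03 CPM and the 3 WD libraries 2.42 to 3.19 CPM. With depth as a covariate the log2 fold change was 0.50 (SE 0.56, adjusted p = 0.779 by edgeR), and the difference between the sets was not tested.

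GHSR, the receptor of ghrelin, a stomach peptide that stimulates appetite, had 39 control and 34 WD read pairs, at 1.87 ± 1.41 CPM (SD, n = 5) in control and 0.966 ± 0.649 CPM in WD camels. MC3R, one of the receptors through which melanocortin peptides act on energy balance, had 20 and 9, and was at 0 in CON4, WD7 and WD15. NMUR2, the brain receptor of neuromedin U, had 70 read pairs, 26 of them in the libraries of least depth. It was at 9.57 CPM in CON13 (95% binomial interval 4.13 to 18.8) and 8.54 CPM in WD6 (5.06 to 13.5), and at most 1.69 CPM in the other 8 libraries. Both groups therefore had 1 high library, and the mean control level of 2.40 CPM was 0.605 CPM without CON13. NMUR2 was removed by the filter, and the unfiltered edgeR fit gave a log2 fold change of 0.60 (SE 1.02, adjusted p = 0.919).

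CRHR2 (ENSCDRG00005002457), a receptor of the stress peptides urocortin and corticotropin-releasing hormone, followed EDNRB in the order. Its levels were 2.56 CPM in CON2, 6.15 in CON3, 3.33 in CON4, 2.05 in CON5 and 5.98 in CON13, against 1.90 in WD6, 1.79 in WD7, 4.61 in WD8, 1.04 in WD9 and 2.50 in WD15. CON3 and CON13 were above every WD library and WD6, WD7 and WD9 below every control, with the other 5 libraries between them. The log2 fold change was -0.67 (SE 0.51, 95% confidence interval -1.75 to 0.41, adjusted p = 0.747 by edgeR), and it was negative under each setting tried, between -1.12 and -0.41. The mean was 4.90 CPM in 3 control and 2.20 CPM in 2 WD libraries of less depth, and 2.69 CPM in 2 control and 2.48 CPM in 3 WD libraries of more depth. The ligand genes CRH, UCN, UCN2 and UCN3 all had a mean under 1 CPM in both groups. For CRH the control mean of 0.984 CPM was 0.333 CPM without CON13 and 1.20 CPM without CON4.

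RXFP2 (ENSCDRG00005005532), the receptor of the relaxin-like peptide INSL3, which guides the descent of the testis, had 48 control and 38 WD read pairs. It was at 2.77 CPM in CON2, 2.60 in CON3, 0.688 in CON4, 1.90 in CON5 and 5.98 in CON13, and at 0.949 in WD6, 2.17 in WD7, 2.30 in WD8, 0.259 in WD9 and 0.208 in WD15. The highest value, in CON13, came from 5 read pairs. The log2 fold change was -0.96 (SE 0.72, 95% confidence interval -2.48 to 0.57, adjusted p = 0.741 by edgeR), the largest in size of the 6 and the least precise. It was negative under each setting, between -1.41 and -0.57, while the mean CPM was 3.79 in control and 0.579 in WD camels among the 5 libraries of less depth and 1.30 and 1.58 among the 5 of more depth. GNRHR, the pituitary receptor of gonadotropin-releasing hormone, had 24 control and 26 WD read pairs, with a count in each library, at 1.15 ± 0.735 CPM (SD, n = 5) and 1.01 ± 0.918 CPM.

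The receptors removed by the filter included those with the most uneven counts. SSTR1 (ENSCDRG00005018396), an inhibitory receptor of somatostatin, had 60 control and 20 WD read pairs. It was at 1.71 CPM in CON2, 1.18 in CON3, 4.13 in CON4, 1.46 in CON5 and 1.20 in CON13, and at 0 in WD6, 1.15 in WD7, 0.154 in WD8, 0.778 in WD9 and 0.208 in WD15. The WD values were all below the control values, and such a separation, in either direction, was found for 2.62% of the genes that passed the filter, to which SSTR1 does not belong. It rests on few reads, as the count of 0 in WD6 allows up to 1.42 CPM, which is above CON3 and CON13. It was also narrow, since WD7 (9 read pairs) and CON3 (5 read pairs) were at 1.15 and 1.18 CPM and CON13 had 1 read pair. CON4 held 36 of the 60 control read pairs, and without it the control mean fell from 1.94 to 1.39 CPM, beside 0.458 CPM in WD camels. The unfiltered edgeR fit gave a log2 fold change of -1.92 (SE 0.81, adjusted p = 0.538), and DESeq2 gave -1.96 (SE 0.82, adjusted p = 0.306).

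PROKR2 (ENSCDRG00005008753), a receptor of the prokineticins with roles in olfactory development and circadian output, had 34 control and 13 WD read pairs. The controls were at 1.07 CPM in CON2, 2.13 in CON3, 0.115 in CON4, 2.05 in CON5 and 5.98 in CON13, and the WD libraries at 0 in WD6, 0.383 in WD7, 0.768 in WD8, 0.173 in WD9 and 0.625 in WD15. Of the controls, 4 were above every WD library and CON4, with 1 read pair, was below 4 of them. PROKR2 had a log2 fold change of -2.14 (SE 0.98, adjusted p = 0.582) in the unfiltered edgeR fit and -2.23 (SE 0.93, adjusted p = 0.298) by DESeq2. SSTR1 and PROKR2 were the receptors of the 12 with an unadjusted p under 0.05 in either fit, a level reached by 8.15% of all genes in the unfiltered edgeR fit and by 8.83% in DESeq2. Neither passed the adjustment.

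**Figure D4:**
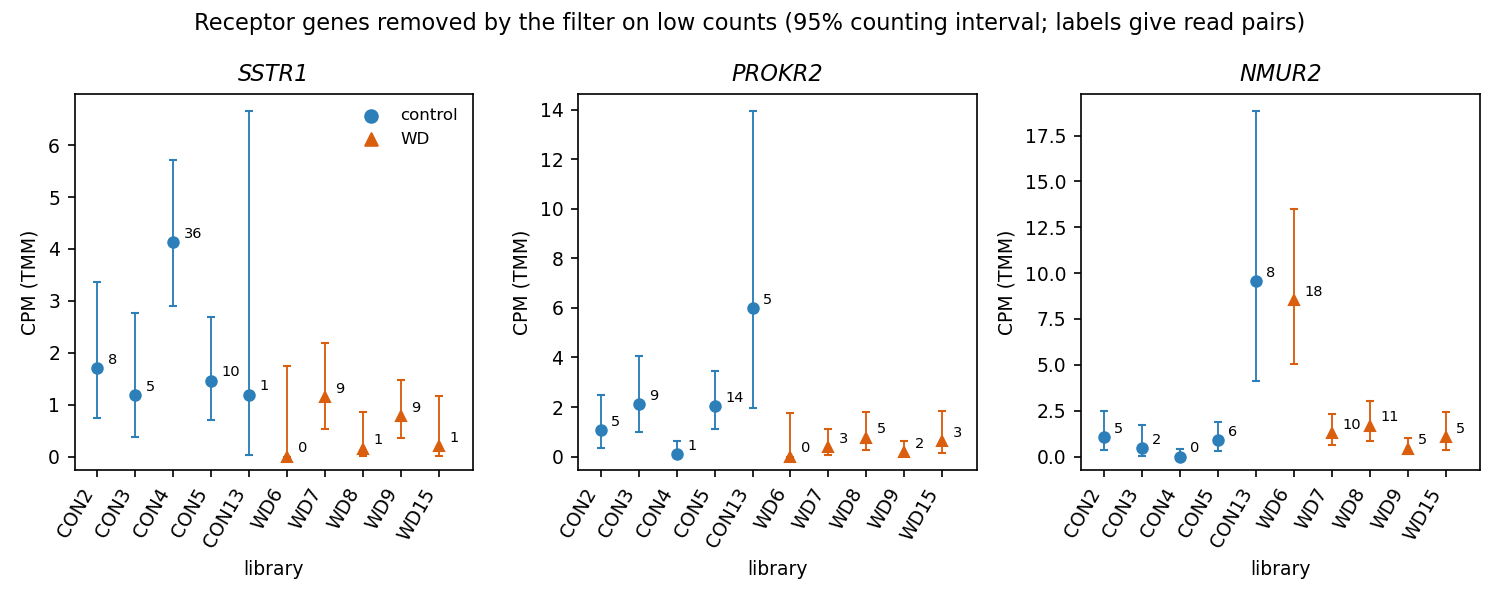
Level of SSTR1, PROKR2 and NMUR2, which the filter on low counts removed, in each library in CPM. Blue circles are control and orange triangles WD libraries, bars are exact 95% binomial intervals, and the label beside each point is its number of read pairs. The SSTR1 values of the WD libraries lie below the controls, those of PROKR2 overlap through CON4, and NMUR2 is high in CON13 and WD6.

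The remaining receptors were sparse. NTSR1, the high-affinity receptor of neurotensin, had 22 control and 16 WD read pairs and was at 0 in CON13 and WD9. The tachykinin receptors TACR1, which prefers substance P, and TACR2, which prefers neurokinin A, had 31 and 57 read pairs over the 10 libraries. TACR2 had a count in each library, at 1.16 ± 0.948 CPM (SD, n = 5) in control and 1.44 ± 1.17 CPM in WD camels, and TACR1 was at 0 in CON13 and WD6. NPFFR2, a receptor of the RFamide peptides, had 19 read pairs, of which 8 were in CON5 and 9 in WD8, and was at 0 in 7 libraries. Of the 12 receptors below the filter, 3 had a positive and 9 a negative log2 fold change in the unfiltered edgeR fit.

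To show what such counts can mean, the receptors were set beside 8 genes for taste, trace amine and visual receptors (TAS2R7, TAS2R10, TAAR2, TAAR5, TAAR6, TAAR8, OPN1LW and OPN1SW), a list added after the receptor counts were seen. These had mean control levels of at most 1.64 CPM. By mean control CPM, 11 of the 18 neuropeptide receptors were above the highest of them and 7 (MC3R, TACR2, GNRHR, NTSR1, TACR1, NPFFR2 and BDKRB1) at or below it. By the median of the controls, or without CON13, 10 were above, as NMUR2 fell to the lower side. In the WD libraries 9 were above, with SSTR1, PROKR2 and GHSR then on the lower side and TACR2 on the upper. In the control camels the mean level of these 7 genes was thus no higher on this scale than that of TAAR8. TAAR8 was the highest of these sensory receptors by mean control CPM, and was at 1.15 CPM without CON13. By read pairs over the 10 libraries the highest was TAS2R10, with 51. On that measure 11 neuropeptide receptors were above it, with PROKR2 on the lower side and TACR2 on the upper.

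The listed genes for the peptides themselves had fewer reads than the receptors, with a median control level of 0.850 CPM against 1.90 CPM, and of 0.539 against 1.45 CPM without CON13. These are again read pairs per gene and not per length of transcript. The list held 27 ligand genes of the 18 receptors and was not complete, as INSL3, the ligand of RXFP2, was not on it. Of the 27, 3 passed the filter (SST, TAC3 and GNRH1) and none was past the threshold by edgeR. None of the 3 had an unadjusted p under 0.05 or was called by DESeq2. SST, the somatostatin precursor, was the highest at 7.80 ± 3.53 CPM (SD, n = 5) in control and 10.9 ± 6.16 CPM in WD camels (log2 fold change 0.33, SE 0.35, adjusted p = 0.840 by edgeR). Its highest value was 21.8 CPM in WD6, and without this library the log2 fold change was -0.017. TAC3, the precursor of neurokinin B, was at 3.60 ± 2.66 CPM in control and 1.78 ± 1.11 CPM in WD camels (log2 fold change -0.91, SE 0.79, adjusted p = 0.791 by edgeR). GNRH1, the gonadotropin-releasing hormone gene, was at 0.237 to 2.78 CPM in control and 0 to 2.46 CPM in WD libraries (log2 fold change -0.48, SE 0.66, adjusted p = 0.893 by edgeR). The lowest was AGRP, the antagonist of melanocortin receptors, with 4 read pairs in all. Among 5 ligands of receptors that are not analysed here, TRH (thyrotropin-releasing hormone) passed the filter, at 20.7 ± 10.4 CPM in control and 15.9 ± 6.59 CPM in WD camels (log2 fold change -0.37, SE 0.36, adjusted p = 0.820 by edgeR), and its log2 fold change was -0.015 without CON3.

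Genes that act before or after the receptors were better covered. Of 19 peptidases 18 were tested and none was past the threshold by edgeR, with 11 log2 fold changes positive, 7 negative and a median of 0.19. TRHDE, which degrades thyrotropin-releasing hormone, was the peptidase with an unadjusted p under 0.05 and was not called by DESeq2 (adjusted p = 0.0742). It was at 16.1 to 29.5 CPM in control and 2.92 to 13.7 CPM in WD libraries, which did not overlap, with a log2 fold change of -1.13 (SE 0.31, adjusted p = 0.178 by edgeR). All 9 phospholipase C-beta and G protein-coupled receptor kinase genes were tested, none was past the threshold by edgeR or DESeq2, and PLCB4, with a log2 fold change of -0.55 (adjusted p = 0.366 by edgeR), had the unadjusted p under 0.05 among them.

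Receptors of other peptides, mainly of the secretin, opioid, calcitonin and bombesin families, were compared in the same fit. Of these 22 genes 11 passed the filter, against 6 of the 18 here, and their median control level was 3.39 CPM against 1.90 CPM. None of the 11 was past the threshold by edgeR (adjusted p of at least 0.0683), and 5 had an unadjusted p under 0.05. DESeq2 called 2 of them, both lower in WD camels, while it called none of the 12 with an adjusted p here. These were OPRL1, the nociceptin receptor (log2 fold change -0.94, adjusted p = 0.0683 by edgeR), and ADCYAP1R1, the receptor of pituitary adenylate cyclase-activating peptide (-0.58, adjusted p = 0.194 by edgeR). The other 3 were GIPR, a receptor of the gut peptide GIP (-1.60, adjusted p = 0.422), and, with positive log2 fold changes, GLP1R, the receptor of glucagon-like peptide 1 (1.21, adjusted p = 0.192), and CALCR, the calcitonin receptor (0.72, adjusted p = 0.203), all by edgeR. The edgeR fit called OPRL1 with depth as a covariate, without WD6 and without both shallow libraries (CON13 and WD6), and GLP1R without WD15 (adjusted p = 0.0491). No test of a difference between the lists was made. CCKAR, a cholecystokinin receptor that was not on this list, is reported by the study as higher in WD camels by RNAseq and qRT-PCR.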

How the data were processed

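Reads were trimmed, mapped by the authors to Camdro2 (STAR) and assigned to genes as counts of read pairs (featureCounts). The deposited counts are whole numbers without normalization, 1 column per library. A second deposited table, the same counts divided by size factors of DESeq2, was not used. The annotation release and the strand setting are not given in the sources used here, so genes that overlap are uncertain. Conditions came from the labels. The copies of the supplementary tables that pair symbols with IDs are shortened, so 28 receptors and other genes have no ID here.

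The receptors and all gene lists were chosen with earlier results of these data known. Counts were tested with edgeR 4.0.16 in R 4.3.3 (TMM, filterByExpr by group, robust quasi-likelihood fit, no covariate) and, as an alternative, with DESeq2 1.42.0. The SE is the size of the log2 fold change divided by the square root of F. Levels, exact binomial intervals and permutations (100000 resamples) used Python 3.11.15 with scipy 1.17.1. The edgeR step was tested on simulated data. The genes named are all 18 receptors, the ligands that passed the filter or had the highest or lowest control level, and list genes past the threshold. Other genes were named after their values were seen, as were the depth sets. Alternatives were DESeq2, other normalizations, other filters, a fit that is not robust, depth as a covariate, and libraries left out.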

Additional observations from a re-analysis of the deposited data

Results flagged for a closer look

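In a check for single libraries far from their group, made on the level of each tested receptor in each group of 5, HCRTR1 in WD15 stood apart. It was at 1.25 CPM, from 6 read pairs (95% binomial interval 0.459 to 2.72), while the other 4 WD libraries were at 3.28 to 4.27 CPM. On the scale of log2(CPM + 0.5), on which the check was made, the gap to the nearest of them was 0.769 of the range of the group, above the critical value of 0.71 for 5 samples. On the CPM scale it was 0.673, below that value. This was 1 of 12 groups checked, and chance alone flags about 1 in 20.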

How the results depend on the processing

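None of the tested receptors passed the threshold under any of the 19 alternatives. Of 110 values of single receptors, 101 kept the direction and 9 changed it. APLNR (0.013) and HCRTR1 (0.054) turned positive with library totals only, which moved the median of all genes from 0.02 to 0.16, so that both were below it. EDNRB turned negative with depth as a covariate (-0.070), and with each library left out it ranged from -0.069 (without CON3) to 0.29, HCRTR1 from -0.22 to 0.11 (without WD15), and MCHR1 from -0.15 (without CON5) to 0.48, beside 0.50 with depth as a covariate. CRHR2 and RXFP2 were negative throughout. The receptors positive by sign, 2 of 6, were 4 with library totals only, 1 with depth as a covariate, 1 of 2 with at least 10 counts in every library, and 1 to 3 with each library left out. Over all genes the calls, 72 in the edgeR fit, were 209 with DESeq2, 155 with depth as a covariate, 10 with library totals only, and 40 (without CON3) to 102 (without WD6) with each library left out. With each control left out, EDNRB was 4.40 to 6.38 times the next receptor. Levels per length were not run, as no lengths were at hand. No paired analysis was possible because the groups share no replicate numbers. The cause of these changes was not tested. The 12 receptors with at most 80 read pairs had SEs of 0.74 to 1.34 in the unfiltered edgeR fit.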
